A study of Mus musculus with 15 samples.

Results

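Of the 63814 transcript identifiers in the count table, 151 were shared by most neuron samples and are described here. A transcript was counted as shared when it reached 10 CPM (counts of the transcript per 1000000 counts of the sample) in at least 6 of the 8 samples, whatever their genotype. The 5 transcripts that took most of the counts of every sample (uc009vev.1, uc009vew.1, uc009vey.1, uc009vfb.1 and uc009vfc.1) were left out. Another 3084 transcripts reached 10 CPM in 1 to 5 samples, and 14556 had at least 1 count in any sample. The shared transcripts were chosen by their CPM in the 8 samples, so those levels are given as a description, and only the comparison of genotypes, which the choice did not use, is tested. The rule still leaves out any transcript that reaches 10 CPM in samples of 1 genotype only. All transcripts tested are not limited in this way. Shares of the 151 set beside shares of all tested therefore do not compare like with like.

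The samples were neurons from the brains of male mice aged 3 to 6 months, taken 7 days after a stroke that was induced by injecting an agent the labels call Lnio into the subcortical white matter. One group was Sarm1 -/- (7 libraries), and the other was C57BL/6 control mice, labelled WT (8 libraries). All animals of both groups had the stroke, so no uninjured sample enters any comparison. Magnetic beads removed CD11b-positive cells and kept NCAM-positive cells, and RNA input was set by cell counts.

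Sarm1 encodes an enzyme that consumes NAD when an axon is injured and thereby drives the axon's breakdown, and axons that lack it survive injury for longer. A stroke in the white matter cuts or starves axons away from their cell bodies, and the cell bodies answer with changes in RNA. CD11b marks microglia and other myeloid cells, while NCAM is an adhesion molecule of the neuronal surface that some glial cells also carry. The study compared neurons with and without Sarm1 in this setting. The identifiers have the form of UCSC known-gene identifiers, which stand for single transcripts, and 0 of them matched the gene tables of the reference. No shared transcript is therefore named by its gene, its function is not described, no sequence is printed, and neither the targeted gene nor neuronal and glial markers were checked.

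Libraries with neighbouring replicate numbers were almost the same. Within 7 pairs, a chi-square of the counts per degree of freedom, which is 1 where only counting noise separates libraries, lay at 1.39 to 1.78, and in all other pairs of libraries at 216 to 1423. Each of the 7 pairs was summed to 1 sample, although the labels call every library a biological replicate. This gave Sarm1 -/- samples of replicates 1 and 2, 3, 4 and 5, and 6 and 7, and WT samples of replicates 1 and 2, 3 and 4, 5 and 6, and 7 and 8. Values listed by sample follow that order. Sample totals ran from 2372026 to 16493691 counts. The 5 dominant transcripts took 72.7% of the counts in Sarm1 -/- replicate 3 and 72.9% in WT replicates 1 and 2, and 84.6% to 91.6% in the other samples.

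The shared transcripts held a small part of all counts and a large part of what the dominant transcripts left over. Their share of all counts in Sarm1 -/- was 6.22%, 11.6%, 6.44% and 9.20%, and in WT it was 15.01%, 6.66%, 6.55% and 6.19%. The means were 8.36% ± 2.54 and 8.60% ± 4.28 (SD, n = 4 each), and the groups overlapped. Sarm1 -/- replicate 3 and WT replicates 1 and 2, where the dominant transcripts took least, held the highest shares of their groups. Of the counts outside the dominant transcripts, the 151 held 61.7% ± 14.6 (SD, n = 4) in Sarm1 -/- and 58.0% ± 5.48 (SD, n = 4) in WT, from 42.5% in Sarm1 -/- replicate 3 to 76.7% in Sarm1 -/- replicates 4 and 5. With CPM summed over the 8 samples, the 151 held 56.3% of what lay outside the dominant transcripts, and the 2046 transcripts that reached 10 CPM in a single sample held 14.0%.

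Being shared by most samples did not mean being present at 10 CPM in all. Of the 151 transcripts, 52 reached that level in all 8 samples, 39 in 7 and 60 in 6. The number below 10 CPM in Sarm1 -/- was 47, 10, 28 and 7, and in WT it was 3, 43, 13 and 8. Sarm1 -/- replicates 1 and 2 and WT replicates 3 and 4 thus lacked the most, and WT replicates 1 and 2, the sample with the fewest counts, lacked the fewest. Among the 60 transcripts that fell short in 2 samples, 36 did so in 1 sample of each genotype, 15 in 2 Sarm1 -/- samples and 9 in 2 WT samples. None was at 0 anywhere. The lowest value was 5 counts, 25 of the 1208 values rested on fewer than 20 counts, and 986 rested on 100 or more, so counting error was small for most values.

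Just inside the choice were uc009deh.2, whose sixth highest sample stood at 10.1 CPM (10.085), and uc057lzz.1, at 10.1 CPM (10.113). Just outside were uc007qio.2, at 9.84 CPM, and uc009pzt.1, at 9.70 CPM. The values of uc009pzt.1 ran from 1.58 to 311 CPM over the 8 samples and those of uc057lzz.1 from 1.38 to 380 CPM.

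**Figure D1:**
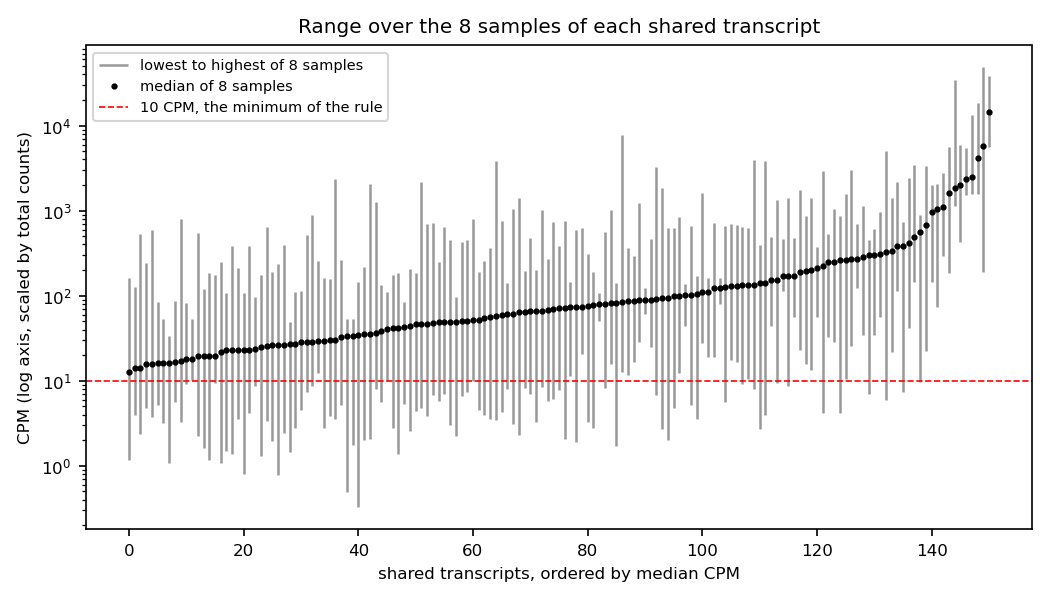
CPM of each of the 151 shared transcripts (log axis), ordered along the horizontal axis by median CPM; each grey line runs from the lowest to the highest of the 8 samples, each black point is the median, and the dashed red line is the minimum of 10 CPM. Medians rise from 12.7 to 14554 CPM, and most lines cross the dashed line.

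Levels differed widely among the shared transcripts. The median over the 8 samples was 12.7 CPM for the lowest, 71.1 CPM for the middle and 14554 CPM for the highest transcript. In that median, 16 lay below 20 CPM, 81 from 20 to 100 CPM, 44 from 100 to 1000 CPM and 10 above. CPM does not correct for transcript length, so a higher CPM means more counts and not more molecules. The 6 transcripts with the highest medians together held 36.2% to 66.7% of the counts of the 151 in each sample.

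The highest was uc009vex.2, whose identifier lies among those of the dominant transcripts in the table. It stood at 14604, 14504, 7520 and 38296 CPM in Sarm1 -/- samples and at 5625, 15639, 10547 and 18376 CPM in the WT samples. It was the most abundant of the 151 in 5 of the 8 samples, and its groups overlapped.

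The next, uc008gfj.2, followed another pattern. Its values were 692, 48336, 190 and 8572 CPM in Sarm1 -/- samples and 44371, 526, 7533 and 3864 CPM in the WT samples. The highest value of each genotype was in the sample where the dominant transcripts took least, Sarm1 -/- replicate 3 and WT replicates 1 and 2. Highest and lowest differed 254-fold, and both genotypes spanned most of that range.

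Below them, uc007his.2 was more even, at 3180, 1589, 5042 and 5203 CPM in Sarm1 -/- samples and 18365, 4298, 4047 and 4097 CPM in the WT samples. Apart from WT replicates 1 and 2, all its samples lay within a range from 1589 to 5203 CPM. The transcript uc009sgd.1 stood at 2536, 5990, 2196 and 2331 CPM and at 13254, 7352, 2386 and 1565 CPM. It was thus highest in Sarm1 -/- replicate 3 among its group and in WT replicates 1 and 2 among theirs, as uc008gfj.2 was. In CPM over the counts outside the dominant transcripts, only uc008gfj.2 kept that order. On that scale uc009sgd.1 was at 21963 in Sarm1 -/- replicate 3, below 27793 in Sarm1 -/- replicates 1 and 2. In WT replicates 1 and 2 it was at 48977, below 72817 in WT replicates 3 and 4. The transcript uc033jng.1 ran from 1522 to 5461 CPM and was above 1000 CPM in every sample. The transcript uc012hid.1 ran from 434 to 5891 CPM, lowest in WT replicates 1 and 2 and highest in Sarm1 -/- replicates 4 and 5. In the genotype comparison by edgeR, the adjusted p of these 6 transcripts lay between 0.662 and 0.953.

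Only 5 of the 151 were above 1000 CPM in all 8 samples, among them uc009vex.2, uc007his.2, uc009sgd.1 and uc033jng.1. The fifth, uc008vkz.2, named after its values were seen, stood at 1133 to 1914 CPM in Sarm1 -/- samples and at 34633, 1442, 3586 and 2406 CPM in the WT samples. By contrast, 25 of the 42 transcripts that passed 1000 CPM in any sample did so in exactly 1. The 42 transcripts had 108 values above 1000 CPM, so the other values came from transcripts that passed it in more than 1 sample.

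The order of the transcripts changed from sample to sample. Over the 151, Spearman's correlation between 2 samples ranged from 0.209 to 0.598 over the 28 pairs of samples, with a median of 0.358. The median was 0.305 over 6 pairs of Sarm1 -/- samples, 0.399 over 6 pairs of WT samples and 0.353 over 16 pairs of different genotype. Between the joined libraries of a sample it was 0.969 to 0.999. For the 52 transcripts at 10 CPM or more in all samples, the median over the 28 pairs was 0.496. Each value is taken over transcripts, which are not independent replicates, and all CPM values depend on a total that the dominant transcripts govern.

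**Figure D2:**
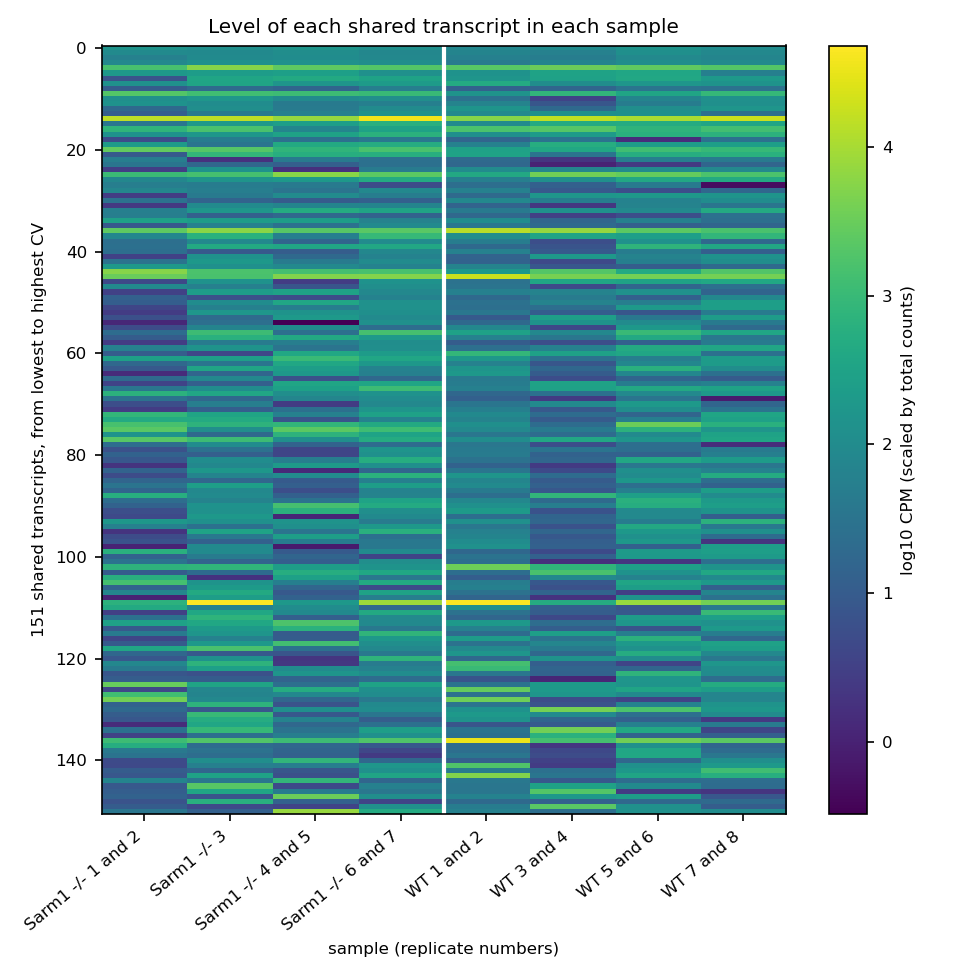
Log10 CPM of each shared transcript (rows, ordered from the lowest coefficient of variation at the top to the highest at the bottom) in each of the 8 samples (columns, 4 Sarm1 -/- left and 4 WT right of the white line). The 47 and 43 transcripts below 10 CPM in Sarm1 -/- replicates 1 and 2 and in WT replicates 3 and 4 appear as dark cells in those columns.

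The highest sample of a transcript could be any of the 8. The number of transcripts that were highest there was 20, 26, 25 and 23 for Sarm1 -/- and 11, 12, 22 and 12 for WT samples, which is 94 against 57. The lowest sample was also Sarm1 -/- more often, for 85 transcripts against 66. Of these lowest values, 37 fell in Sarm1 -/- replicates 1 and 2, 32 in Sarm1 -/- replicates 4 and 5, and 34 in WT replicates 3 and 4. Highest and lowest samples were taken in CPM over all counts, a total that the dominant transcripts govern. The counts by genotype were not tested and have no share over all tested transcripts beside them, so no direction is read from them. For 66 of the 151 (43.7%) both highest samples were of the same genotype, and same-genotype pairs make up 42.9% of the possible pairs. Pairing of Sarm1 -/- replicate 3 with WT replicates 1 and 2 occurred for 9 transcripts. Sarm1 -/- replicates 6 and 7 paired with WT replicates 5 and 6, and with WT replicates 7 and 8, for 9 transcripts each. No pair of samples occurred for more.

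Spread across samples was large for nearly all of the 151. The coefficient of variation (CV, the SD of CPM over 8 samples divided by the mean) had a median of 1.14 and ranged from 0.226 to 2.51. It exceeded 1 for 98 transcripts and was under 0.5 for 6. Highest and lowest sample differed by a median of 64.3-fold. That ratio was under 4 for 5 transcripts, from 4 to 10 for 10, from 10 to 100 for 81, and 100 or more for 55. The widest ratio, 1109.5-fold, was that of uc009mvk.2, named after its values were seen. It stood at 3834, 82.8, 16.5 and 39.4 CPM in Sarm1 -/- samples and at 3472, 5.10, 3.46 and 74.5 CPM in the WT samples, so 1 sample of each genotype was high. The spread was alike within both genotypes, with a median CV of 0.967 over the Sarm1 -/- samples and 0.948 over the WT samples, and 78 of the 151 had the higher CV in Sarm1 -/-.

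A single sample often held most of a transcript. For 46 of the 151 (30.5%), over 50% of the CPM summed over samples lay in 1 sample, and every sample was that sample for 2 to 8 transcripts. The median share in the highest sample was 41.6%, against 92.6% for the 2046 transcripts that reached 10 CPM only once, where the choice itself makes it high.

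The 4 transcripts with the highest CV were each raised in 1 sample. In the order of the samples, uc009fij.1 (CV 2.51) stood at 34.9, 12.8, 7669 and 484 CPM in Sarm1 -/- and at 61.1, 24.6, 132 and 107 CPM in WT. Sarm1 -/- replicates 4 and 5 alone held 90.0% of its summed CPM. Both libraries of that sample showed it, at 7338 CPM in replicate 4 and 8036 CPM in replicate 5. The transcript uc007wfw.1 (CV 2.30) was raised in the same sample, at 14.0, 6.81, 3274 and 118 CPM in Sarm1 -/- and 64.1, 188, 249 and 8.31 CPM in WT.

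The other two were raised elsewhere. Values of uc007ujb.2 (CV 2.42) were 10.5, 4.43, 3.52 and 133 CPM in Sarm1 -/- samples and 48.9, 2335, 134 and 10.98 CPM in the WT samples, with the high value in WT replicates 3 and 4. Values of uc009dsm.2 (CV 2.39) were 6.77, 594, 13.0 and 3.78 CPM and 19.4, 13.4, 18.1 and 20.1 CPM, with the high value in Sarm1 -/- replicate 3, which has no partner library. Outside that sample uc009dsm.2 stayed between 3.78 and 20.1 CPM.

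Transcripts could also be nearly absent from 1 sample. Values of uc009onl.2 were 1.23, 25.5, 0.326 and 130 CPM in Sarm1 -/- samples and 19.4, 145, 104 and 43.9 CPM in the WT samples. The lowest value rests on 5 counts, in Sarm1 -/- replicates 4 and 5. Values of uc007lfl.1 were 26.6, 938, 29.8 and 253 CPM and 31.6, 3877, 428 and 3.95 CPM, so the highest and the lowest sample were both WT.

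**Figure D3:**
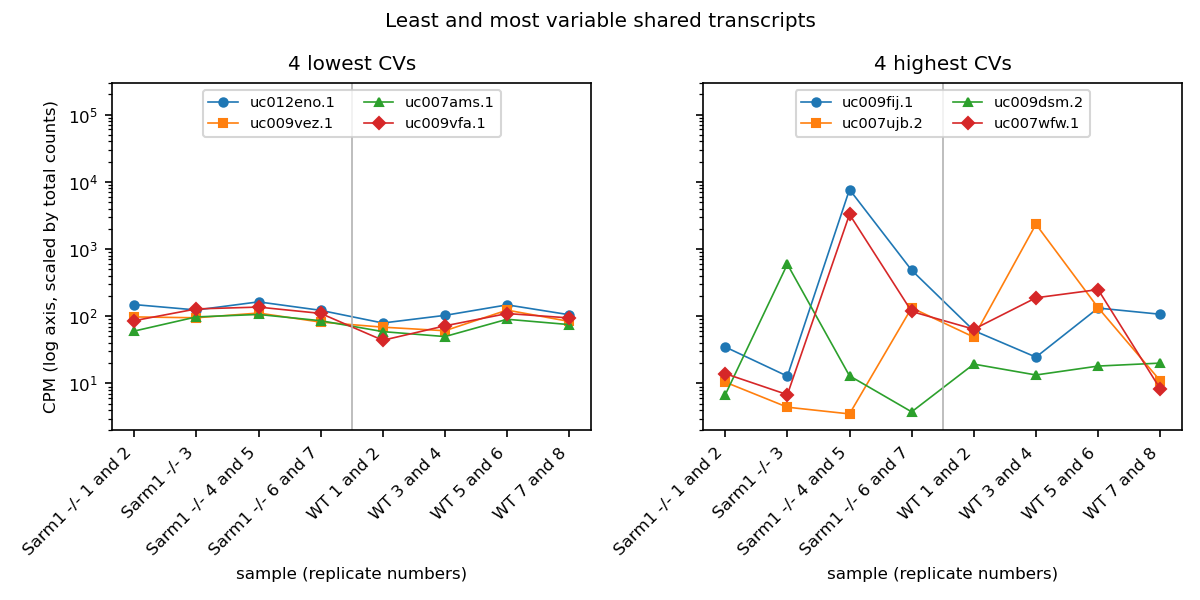
CPM (log axis) in each of the 8 samples of the 4 shared transcripts with the lowest CV (left) and the 4 with the highest CV (right); lines only join the points of 1 transcript, and the grey line parts Sarm1 -/- from WT samples. The left 4 stay between 43.8 and 164 CPM, while each of the right 4 has 1 sample far above the rest, up to 7669 CPM for uc009fij.1.

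The 4 steadiest transcripts in CPM were uc012eno.1 (CV 0.226), uc009vez.1 (CV 0.232), uc007ams.1 (CV 0.260) and uc009vfa.1 (CV 0.312). Values of uc012eno.1 were 149, 124, 164 and 122 CPM in Sarm1 -/- samples and 79.3, 103, 148 and 105 CPM in the WT samples. Values of uc009vez.1 were 97.6, 94.8, 111 and 81.8 CPM and 68.7, 60.8, 123 and 83.6 CPM. No other shared transcript had a highest value as near to its lowest, 2.03 times for uc009vez.1 and 2.06 times for uc012eno.1.

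Of these, uc009vez.1 and uc009vfa.1 are the only shared transcripts that stand next to each other in the table, and both lie within the run of 8 identifiers that the dominant transcripts begin and end. Values of uc009vfa.1 were 85.8, 128, 137 and 110 CPM in Sarm1 -/- samples and 43.8, 71.9, 110 and 94.3 CPM in the WT samples. Values of uc007ams.1 were 60.1, 97.7, 106 and 85.8 CPM and 59.0, 49.8, 90.1 and 75.0 CPM. All 4 had their lowest sample among the WT samples, either replicates 1 and 2 or replicates 3 and 4, and their genotype comparison had adjusted p values from 0.930 to 0.971 by edgeR. The groups of each overlapped.

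The steadiness of these 4 was tied to the scale. Their counts relative to those of the most abundant dominant transcript, uc009vev.1, had CVs of 0.196 (uc012eno.1), 0.231 (uc009vez.1), 0.295 (uc007ams.1) and 0.341 (uc009vfa.1). As uc009vev.1 took 58.8% to 80.1% of the counts of each sample, that ratio nearly repeats CPM. Over all 151 its median CV was 1.12, beside 1.14 in CPM. For uc012eno.1 that ratio, scaled in the same way as CPM but to the counts of uc009vev.1, was 192, 210, 204 and 191 in Sarm1 -/- and 128, 136, 211 and 146 in the WT samples. When CPM was taken over the counts outside the dominant transcripts, the CVs of these 4 rose to between 0.503 and 0.536. With TMM scaling (trimmed mean of M values, which sets the typical transcript level across samples) they rose to between 0.754 and 0.814. The transcript uc029sug.1, named after its values were seen, was the steadiest on both of those scales. Outside the dominant transcripts it stood at 1505, 1267, 1964 and 1467 CPM in Sarm1 -/- samples and 1731, 1112, 1411 and 1354 CPM in the WT samples (CV 0.181). Its CV was 0.464 with TMM scaling and 0.556 in CPM over all counts.

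**Figure D4:**
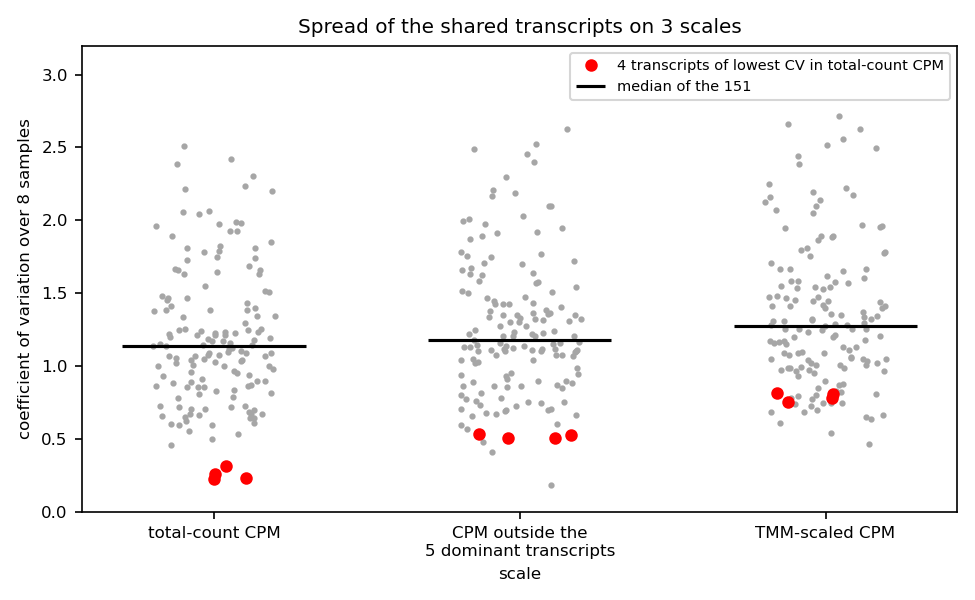
Coefficient of variation over the 8 samples of each of the 151 shared transcripts (grey points, spread sideways at random) on 3 scales, with the median as a black line and the 4 transcripts of lowest CV in total-count CPM in red. Medians are 1.14, 1.18 and 1.28, and the red points move from 0.226 to 0.312 on the left up to 0.754 to 0.814 on the right.

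Across all scales the median spread stayed high, at 1.14 in CPM over all counts, 1.18 outside the dominant transcripts and 1.28 with TMM scaling. The number of transcripts with a CV under 0.5 was 6, 3 and 1 on those scales. The transcript with the highest CV was uc009fij.1 on each of the 3.

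Most of the 151 stood beside identifiers with few counts in the table. How reads shared between transcripts were counted is not known, so this does not show whether reads were split. None had the same counts in all samples as another identifier. For 115 of the 151, both neighbours in the table held under 1% of the transcript's summed counts, for 57 both neighbours were at 0, and for 3 a neighbour held more counts than the transcript itself.

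The genotypes were then compared over the 4 Sarm1 -/- and 4 WT samples. The fit covered 1728 transcripts, with p values adjusted over all of them, and all 151 shared transcripts passed its filter on low counts. By edgeR's quasi-likelihood test 0 of the 151 passed a false discovery rate (FDR) of 0.05, as did 0 of all 1728 (0%). The lowest adjusted p among the 151 was 0.173, against 0.119 among all tested. An unadjusted p under 0.05 was reached by 5 of the 151 (3.31%), 2 higher and 3 lower in Sarm1 -/-, where 331 of the 1728 (19.2%) reached it, 9.84% higher and 9.32% lower. Without the robust option of that fit, 0 of the 151 passed the FDR and 6 had an unadjusted p under 0.05, beside 0% and 19.6% of all tested. Unadjusted p values under 0.05 by limma-voom were 3 among the 151, with 0 past the FDR, against 4.8% of all tested. The share of shared transcripts with an unadjusted p under 0.05 was thus below the background share in each of these 3 fits. By DESeq2 on the 8 samples it was above, at 9 of 129 shared transcripts (6.98%) beside 4.42% of all 11820 transcripts given a p. Those 11820 were not filtered on low counts. None of these differences was tested, and the rule of choice by itself makes the 151 unlike all tested.

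Fitted differences lay on both sides of 0. The log2 fold change was above 0 for 73 and below 0 for 78 of the 151, with a median of -0.14, beside 0.12 over all tested. The sign of that median changed with upper quartile scaling (0.36) and when any of 5 single samples was left out, so no direction is read from it. The absolute log2 fold change exceeded 2 for 41 of the 151 (27.2%) and for 44.2% of all tested, which the rule of choice does not limit. The median standard error was 1.89 for the 151 and 1.61 for all tested. The biological coefficient of variation that edgeR estimated had a median of 1.51 for the 151 and 1.31 for all tested.

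**Figure D5:**
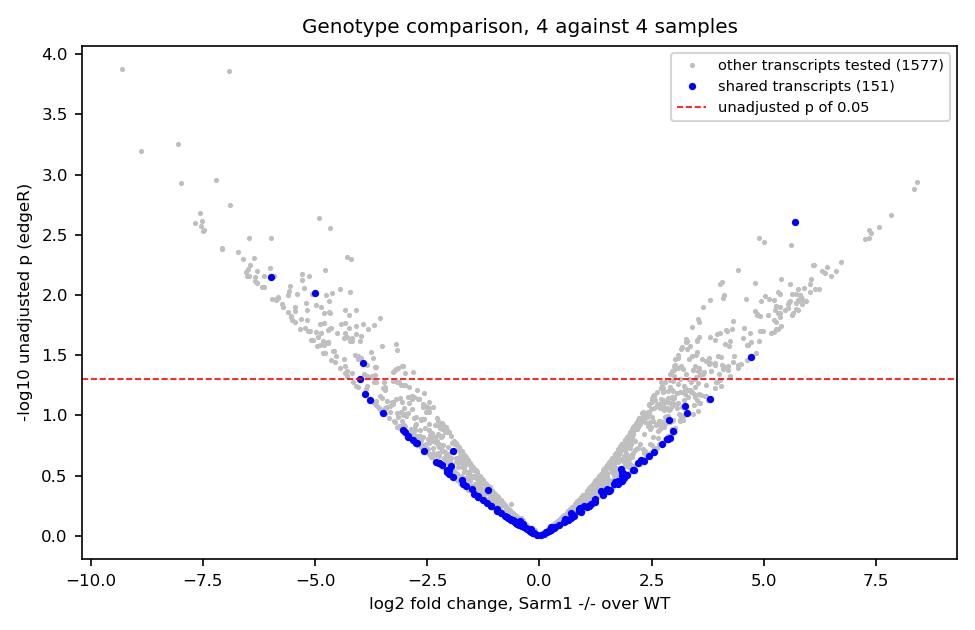
Log2 fold change of Sarm1 -/- over WT (horizontal axis) against the -log10 of the unadjusted p by edgeR for 1577 other tested transcripts (grey) and the 151 shared ones (blue), with a dashed line at a p of 0.05. Of the blue points, 5 lie above the line, and the outermost ones are at log2 fold changes of 5.68 and -5.98.

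Among the shared transcripts, uc009fij.1 had the smallest p of those higher in Sarm1 -/-. Its TMM-scaled levels were 44.8, 6.08, 19739 and 267 CPM in Sarm1 -/- and 22.3, 63.1, 205 and 99.4 CPM in WT samples. The groups overlapped, and Sarm1 -/- replicates 4 and 5 stood apart. The log2 fold change of uc009fij.1 was 5.68 (SE 1.88, adjusted p 0.173 by edgeR), and without that sample it was -0.23 (adjusted p 0.970 by edgeR). Over the 18 alternatives that gave uc009fij.1 an adjusted p, it ran from 0.0117, with 15 separate libraries, to 0.970. For uc009tre.2 the TMM-scaled levels were 92.1, 16.3, 2262 and 8.81 CPM in Sarm1 -/- and 13.8, 22.4, 33.7 and 21.2 CPM in WT samples. The same sample was high, and 2 of the 4 Sarm1 -/- samples lay below the WT sample at 22.4 CPM. The log2 fold change of uc009tre.2 was 4.71 (SE 2.20, adjusted p 0.222 by edgeR) and 0.58 without Sarm1 -/- replicates 4 and 5.

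Of those lower in Sarm1 -/-, uc007ujb.2 had the smallest p. Its TMM-scaled levels were 13.4, 2.10, 9.06 and 73.6 CPM in Sarm1 -/- and 17.8, 5987, 208 and 10.2 CPM in WT samples. WT replicates 3 and 4 stood apart and the groups overlapped. The log2 fold change of uc007ujb.2 was -5.98 (SE 2.22, adjusted p 0.173 by edgeR) and -2.09 without that sample. For uc007jpe.1 the TMM-scaled levels were 24.6, 3.83, 318 and 58.2 CPM in Sarm1 -/- and 52.2, 10233, 2567 and 168 CPM in WT samples, so 2 WT samples were above all others. The log2 fold change of uc007jpe.1 was -5.01 (SE 1.93, adjusted p 0.173 by edgeR), and -3.54 without WT replicates 3 and 4. In CPM over all counts its groups did not overlap, with 8.07 to 124 CPM in Sarm1 -/- and 143 to 3991 CPM in WT samples.

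Few shared transcripts had groups that did not overlap. On the TMM scale there were 3 of the 151 (1.99%), 2 higher and 1 lower in Sarm1 -/-, beside 4.34% of all tested (1.79% higher and 2.55% lower). In CPM over all counts there were 4 (2.65%), 2 higher and 2 lower, beside 1.68% of all tested (0.637% higher and 1.04% lower), and none of the 4 was among the 3. Named after their values were seen, the 3 were uc007tas.2, uc007ujs.3 and uc009gea.1, and the 4 were uc008eke.2, uc008ykb.3, uc007jpe.1 and uc009ajk.2.

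TMM-scaled uc007ujs.3 was at 250.2, 62.1, 225 and 35.1 CPM in Sarm1 -/- and at 24.3, 20.8, 16.7 and 17.9 CPM in WT samples, with a log2 fold change of 2.85 (SE 2.00, adjusted p 0.403 by edgeR). TMM-scaled uc009gea.1 was at 22.7, 4.43, 19.0 and 21.4 CPM in Sarm1 -/- and at 59.3, 46.7, 810.4 and 78.0 CPM in WT samples, with a log2 fold change of -3.88 (SE 2.12, adjusted p 0.295 by edgeR). In CPM over all counts, uc008eke.2 was at 2012, 1281, 1142 and 982 CPM in Sarm1 -/- and at 145, 833, 358 and 923 CPM in WT samples, and uc009ajk.2 was at 29.5, 14.6, 9.97 and 12.6 CPM and at 86.0, 51.1, 63.5 and 109 CPM. Every one of the 7 overlapped on the other scale, and their adjusted p values by edgeR ran from 0.173 to 0.799.

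Other ways to test gave other counts. DESeq2 on the 8 samples called 3 of the 129 shared transcripts to which it gave an adjusted p (2.33%), all lower in Sarm1 -/-, beside 13.6% of all 1235 transcripts with an adjusted p (6.88% lower). They were uc007jpe.1, uc009gea.1 and uc009fhw.1, with adjusted p values of 0.0310, 0.0354 and 0.0385 by DESeq2. Limma-voom with sample quality weights called 0 of the 151, beside 1.45% of all tested. By that fit the lowest adjusted p among the 151 was 0.0556. It gave an unadjusted p under 0.05 to 34 of the 151 (22.5%), 25 higher and 9 lower in Sarm1 -/-. Of all tested, 25.5% had one by that fit, 12.7% higher and 12.8% lower. With all 15 libraries as separate replicates edgeR called 19 of the 151 (12.6%), 12 higher and 7 lower in Sarm1 -/-, beside 24.6% of all tested (13.4% higher and 11.1% lower). That fit counts both libraries of a sample, which differ little, as 2 animals. All 19 had the same direction over the 8 samples. The 8 samples sum the same libraries, so this agreement is no separate evidence. The edgeR test on the 8 samples gave an unadjusted p under 0.05 to 5 of the 19, and the groups of 2 did not overlap on the TMM scale. The same shares over all transcripts called with 15 libraries are not given here.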

How the data were processed

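The authors deposited raw read counts for each transcript identifier, not normalised, judged from whole numbers and differing column totals (1129784 to 8635837 per library). The submitters' processing notes name FastQC, STAR, HTSeq, DESeq2 and the build mm10, without role or settings; how reads shared between transcripts were counted is not given in the sources used here. Columns of no sample numbered 0. Libraries were joined to 8 samples, which departs from the labels, where each library is a biological replicate; nothing there ties libraries to animals, so p-values measure the spread between samples only. The shared transcripts, the joining and the lists were chosen with earlier results of these data known.

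Counts were fitted with edgeR 4.0.16 (R 4.3.3; TMM, filterByExpr, robust two-sided quasi-likelihood test, Benjamini-Hochberg adjustment over all transcripts tested, FDR 0.05). The robust option is not in the design written beforehand: it was adopted after seeing that it gave the 331 unadjusted p values under 0.05 of the earlier processing, and the fit without it (338) is an added alternative. The standard error is the absolute log2 fold change over the square root of F. The fit was run on simulated data, but it was required to recover the set changes only at a spread far below that of these data. That run therefore does not show which changes could be found at the spread seen here. DESeq2 1.42.0 and limma 3.58.1 were alternatives, beside other scaling, no filter, separate or first libraries, a replicate block and leaving out each sample. Named were the 6 highest medians, the 4 lowest and 4 highest CVs, the 2 smallest p in each direction, the transcripts nearest 10 CPM, neighbours in the table, and 4 transcripts with a single sample under 1 or above 1000 CPM (those farthest from the median of their other samples, an order set after the data were seen); others are marked as named after their values were seen.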

Additional observations from a re-analysis of the deposited data

Results flagged for a closer look

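A sample lay far from the other 3 of its group in 13 of 48 groups of 4 values that were examined for the named transcripts and the sample measures. Over all 151 shared transcripts it was 68 of 302 groups (22.5%). The limit used flags about 5% of groups where values are normally distributed. Whether CPM values are so distributed was not tested, so 5% is no background for these groups. The named transcripts include those chosen for a high CV, so such samples were part of their choice.

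In Sarm1 -/- replicates 4 and 5, uc009fij.1 was at 7669 CPM (next 484), uc007wfw.1 at 3274 CPM (next 118) and uc009tre.2 at 879 CPM (next 71.8). In Sarm1 -/- replicate 3, uc009sgd.1 was at 5990 CPM (next 2536), uc009dsm.2 at 594 CPM (next 13.0), uc057lzz.1 at 380 CPM (next 27.0) and uc009deh.2 at 86.3 CPM (next 19.7). In CPM outside the dominant transcripts, uc009sgd.1 was not highest of its group in that sample. In Sarm1 -/- replicates 6 and 7, uc007ujb.2 was at 133 CPM (next 10.5). In WT replicates 3 and 4, uc007lfl.1 was at 3877 CPM (next 428) and uc007ujb.2 at 2335 CPM (next 134). In WT replicates 1 and 2, uc008gfj.2 was at 44371 CPM (next 7533) and uc007his.2 at 18365 CPM (next 4298). The share of all counts held by the shared transcripts was 15.01% in WT replicates 1 and 2 and 6.66% in the next WT sample.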

How the results depend on the processing

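Of 21 alternatives for the number of shared transcripts past the FDR threshold, 19 gave 0, as reported, among them each omission of a sample. The fit without the robust option, chosen after seeing the data, also gave 0. So did the omission of Sarm1 -/- replicate 3 with WT replicates 1 and 2, likewise chosen after seeing the data. The 19 include a threshold of 0.10 and the restriction to transcripts at 10 CPM in all 8 samples. That threshold could give only 0, because the lowest adjusted p of a shared transcript by edgeR was 0.173. That restriction could give only 0 too, because it keeps a subset of the shared transcripts. Neither is therefore separate evidence. DESeq2 called 3 and the 15 libraries 19. Only 2 of 7 same-numbered pairs of libraries deviated together with a correlation over 0.1, and 2 of 7 correlated best with their own number. Joined libraries are almost the same, so this check cannot decide whether replicate numbers pair the libraries. The fit with the replicate block, which drops WT replicate 8 because no Sarm1 -/- library has its number, gave 0 calls, beside 0.433% of all tested. The number of shared transcripts depended on the choice itself: 247 at 5 CPM and 86 at 20 CPM, 249 at 5 or more samples, 91 at 7 or more and 52 at all 8. With CPM over counts outside the dominant transcripts, which raises every CPM, 844 passed. Requiring 6 of the 7 samples left, a stricter rule by construction, gave 94 to 123, with 98 without Sarm1 -/- replicate 3, 97 without Sarm1 -/- replicates 6 and 7, 94 without WT replicates 1 and 2 and 98 without WT replicates 7 and 8. The mean share held was 8.48% of all counts and 59.9% of counts outside the dominant transcripts. The median CV was 1.28 with TMM scaling. The mean share ran from 7.55% to 8.81% and the median CV from 1.05 to 1.15 over omissions of a sample. The median log2 fold change ran from -1.01 to 0.49 over omissions of a sample, the lowest without Sarm1 -/- replicates 4 and 5. Over omissions of a sample, the log2 fold change of uc009fij.1 ran from -0.23, without Sarm1 -/- replicates 4 and 5, to 6.11. In other settings that fold change was 6.85 with upper quartile scaling, 1.28 by limma-voom and 1.81 with the replicate block. For these results the cause was not tested. Without gene names, reads shared with related sequences could not be judged.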

Other observations

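The first and second libraries of the 7 joined pairs differed little. For 120 shared transcripts with 10 or more counts in every paired library, the log2 ratio of CPM in the second over the first library, averaged over the 7 pairs, had a median of 0.01. The 4 transcripts with the lowest CV had averages of 0.18 (uc009vez.1), 0.19 (uc009vfa.1), 0.22 (uc007ams.1) and 0.24 (uc012eno.1), with SDs from 0.098 to 0.246 over the pairs. The second library was higher in 7 of 7 pairs for uc009vfa.1, uc007ams.1 and uc012eno.1, and in 6 of 7 for uc009vez.1. For uc007ams.1, uc009vfa.1 and uc012eno.1 the largest ratio was that of WT replicate 2 over 1 (0.765, 0.528 and 0.696), from 45 to 112 counts. Among the other 116 shared transcripts, 7 averaged above 0.15 and 4 below -0.15, and 2 were higher in all 7 pairs. Over all 209 transcripts with 10 or more counts in every paired library, 25 averaged above 0.15 and 13 below -0.15. Of those 209, 7 were higher in all 7 pairs. Of the dominant transcripts, uc009vev.1 was lower in the second library in all 7 pairs, with an average of -0.0031, and uc009vey.1 was higher in all 7, with an average of 0.02. The pattern was noticed in these data, no cause was tested, and what distinguishes both libraries of a pair is not given in the labels.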
